A study of Mus musculus with 8 samples.

Results

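The 9 genes described here, Pax5, Foxo1, Pou2af1, Irf4, Spib, Ikzf3, Bach2, Lef1 and Bcl11a, encode transcription factors and a coactivator that act with Ebf1 in the B lineage. Their members are the ATAC-seq peaks whose centre lay in 1 of these genes or in its flanks (20 kb before the start, 10 kb after the end), and for which that gene held the closest annotated transcript of any kind. By this rule the genes had 85 of the 87642 peaks of the MPP3 table and 76 of the 86952 peaks of the MPP4 table. ATAC-seq reads out chromatin that is open to the Tn5 transposase. The rule used positions and no measured level. MPP3 cells are multipotent progenitors biased to the myeloid lineages, and MPP4 cells are multipotent progenitors biased to the lymphoid lineages.

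The 8 libraries came from C57BL/6 mice aged 8 or 9 weeks, in pairs for each genotype and cell type, and each was made from 5000 sorted cells. Cells were gated on lineage marker-negative, Sca-1+ Kit+ cells that were CD150- CD48+, and MPP4 cells also on Flt3+. By the sample labels, Ebf1WT mice carried floxed Ebf1 alleles without Cre, and Ebf1KO mice carried the same alleles with Tie2Cre. Tie2Cre expresses Cre from the Tek promoter, which is active in endothelium and in hematopoietic cells from early development on, so it is not limited to a single progenitor. Floxed alleles are thus common to all groups as labelled, although the design text of the series names Tie2Cre mice with wild-type Ebf1 as controls. MPP3 libraries were from Ebf1WT mice of 8 weeks and Ebf1KO mice of 8 and 9 weeks, and MPP4 libraries from Ebf1WT mice of 9 weeks and Ebf1KO mice of 8 weeks. All mice were labelled female except 1 male Ebf1WT mouse in the MPP4 set.

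The level of a peak is the authors' mean log2 CPM, where CPM is the number of fragments in the peak scaled to a fixed number of fragments over all peaks. It is 1 value for the 4 libraries of a cell type, with Ebf1WT and Ebf1KO pooled, so it has no replicate error, every statement on levels is a description without a test, and the genotypes were not compared. MPP3 and MPP4 cells were normalized and their peaks called in separate tables, and sex and age were not balanced between them, so their part in a difference between the tables cannot be told apart from cell type. Since each level averages both genotypes, a genotype difference in only 1 cell type would also enter such a difference. This was not tested. A larger share of cells with an open region and a more open region in each cell also cannot be told apart in such bulk samples. Flt3, the receptor used to gate MPP4 cells, had a higher level in MPP4 at 7 of its 8 matched peaks, and its summed level over peaks was 170 CPM in MPP3 and 319 CPM in MPP4. Mpo, which encodes the granule enzyme myeloperoxidase, was lower in MPP4 at both of its matched peaks, with a summed level of 81.3 CPM in MPP3 and 20.1 CPM in MPP4. Kit had 6 peaks in MPP3 and 12 in MPP4. The other progenitor surface markers differed from it. Cd48 had 2 peaks in MPP3 and 1 in MPP4, with both matched pairs lower in MPP4, and Ly6a had 1 in each. The T cell genes Cd3e and Cd3g together had 0 peaks in MPP3 and 4 in MPP4.

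B cell development passes through lymphoid progenitors in which E2A, the product of Tcf3, and Foxo1 help to turn on Ebf1. Ebf1 in turn activates Pax5, and Pax5 commits cells to the B lineage. Ikzf3 (Aiolos), Irf4, Spib and the coactivator Pou2af1 (OBF-1) act later, in pre-B and mature B cells. Bach2 is a repressor that limits myeloid and plasma cell programmes, Lef1 is a nuclear effector of Wnt signalling in early lymphoid cells, and Bcl11a is required for lymphoid development from early progenitors.

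Sequences are shown for the peaks on which the descriptions below turn. In them, capitals mark matches on either strand to 4 sets of letters. These are EBF1 (TCCCNNGGG or CCCNNGGGA), the E-box bound by E2A and related proteins (CAGGTG or CAGCTG), RUNX (TGTGGT) and the ETS-IRF composite element (GGAANNGAA), with N for any base. All sequences are mm10 plus strand. The first set holds parts of the promoter peaks of Pou2af1, Spib and Lef1, genes with a promoter peak in the MPP3 table and none in the MPP4 table, and of the most open peak of Pax5.
Pou2af1 promoter, chr9:51213107-51213357: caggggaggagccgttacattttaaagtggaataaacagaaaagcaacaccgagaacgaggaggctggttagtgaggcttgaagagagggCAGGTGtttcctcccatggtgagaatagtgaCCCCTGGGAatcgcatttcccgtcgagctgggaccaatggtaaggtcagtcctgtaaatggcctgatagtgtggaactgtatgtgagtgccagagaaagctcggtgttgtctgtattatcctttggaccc
Spib promoter, chr7:44531287-44531506: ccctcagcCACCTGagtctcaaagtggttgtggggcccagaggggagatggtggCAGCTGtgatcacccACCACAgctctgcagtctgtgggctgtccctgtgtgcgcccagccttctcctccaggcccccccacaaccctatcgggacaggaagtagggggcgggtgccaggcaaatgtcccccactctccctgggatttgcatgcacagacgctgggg
Lef1 promoter, chr3:131110123-131110313: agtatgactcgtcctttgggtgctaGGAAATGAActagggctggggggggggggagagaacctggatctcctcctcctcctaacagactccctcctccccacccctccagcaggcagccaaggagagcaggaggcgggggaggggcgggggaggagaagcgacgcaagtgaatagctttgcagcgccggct
Pax5 near an internal start, chr4:44704425-44704675: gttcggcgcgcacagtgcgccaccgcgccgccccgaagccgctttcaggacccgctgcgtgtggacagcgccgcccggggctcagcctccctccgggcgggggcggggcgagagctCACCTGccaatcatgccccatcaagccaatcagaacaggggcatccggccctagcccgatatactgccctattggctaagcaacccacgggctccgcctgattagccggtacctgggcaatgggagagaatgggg

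The second set holds the middle of 5 intron peaks. Shown are the Lef1 peak with the largest difference toward MPP4 among matched members, the Lef1 peak with the highest level of all MPP4 members, the Bach2 peak with the largest difference toward MPP3, and 2 of the 3 intron peaks of Bach2 in the MPP4 table that had an EBF1 match and an E-box close together, those away from its promoters.
Lef1 intron 3, chr3:131157487-131157737: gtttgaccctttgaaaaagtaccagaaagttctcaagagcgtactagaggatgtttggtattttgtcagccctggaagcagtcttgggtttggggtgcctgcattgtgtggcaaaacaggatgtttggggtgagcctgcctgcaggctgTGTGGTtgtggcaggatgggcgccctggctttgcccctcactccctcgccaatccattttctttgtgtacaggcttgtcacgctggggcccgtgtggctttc
Lef1 intron 11, chr3:131208575-131208825: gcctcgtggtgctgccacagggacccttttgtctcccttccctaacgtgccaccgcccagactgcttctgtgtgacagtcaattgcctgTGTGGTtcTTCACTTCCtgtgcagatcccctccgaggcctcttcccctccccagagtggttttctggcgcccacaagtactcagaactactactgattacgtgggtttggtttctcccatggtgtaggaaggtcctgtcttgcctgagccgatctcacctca
Bach2 intron 2, higher in MPP3, chr4:32337712-32337962: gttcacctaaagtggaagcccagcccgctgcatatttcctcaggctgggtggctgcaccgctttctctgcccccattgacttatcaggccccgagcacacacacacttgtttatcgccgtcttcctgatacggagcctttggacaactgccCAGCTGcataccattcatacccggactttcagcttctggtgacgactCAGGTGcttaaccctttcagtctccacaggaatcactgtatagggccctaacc
Bach2 intron 2, EBF1 and E-box, chr4:32387491-32387741: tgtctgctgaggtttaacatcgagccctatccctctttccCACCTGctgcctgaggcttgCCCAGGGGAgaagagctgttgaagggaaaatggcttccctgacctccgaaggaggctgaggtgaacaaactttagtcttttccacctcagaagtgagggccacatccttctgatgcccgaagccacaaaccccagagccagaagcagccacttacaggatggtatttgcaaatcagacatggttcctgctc
Bach2 intron 4, MPP4 table only, chr4:32531547-32531797: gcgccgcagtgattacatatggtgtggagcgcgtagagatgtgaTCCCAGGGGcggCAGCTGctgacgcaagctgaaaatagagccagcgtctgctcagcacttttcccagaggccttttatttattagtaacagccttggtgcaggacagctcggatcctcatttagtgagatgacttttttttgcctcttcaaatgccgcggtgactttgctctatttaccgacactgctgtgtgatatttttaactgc

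To see how many accessible regions each gene had, peaks were counted by gene. Bach2 led with 32 peaks in MPP3 and 36 in MPP4, followed by Bcl11a with 15 and 10, Lef1 with 8 in each, Foxo1 with 8 and 7, and Ikzf3 with 7 and 3. Pax5 had 6 and 5 peaks, Irf4 4 and 3, Spib 3 and 2, and Pou2af1 2 in each. Among the 15596 protein-coding genes with a peak in MPP3 and the 15569 in MPP4, the median was 2 peaks and the 90th percentile was 8 in both tables. Bach2 spans 347 kb, so it offers more room for peaks than Spib with 6.08 kb. Pax5 spans 186 kb and had fewer peaks than Lef1, Bcl11a, Foxo1 and, in MPP3, Ikzf3, all of shorter span. When only protein-coding genes were used for assignment, Pax5 had 9 and 8 peaks, as many as Foxo1 and more than Ikzf3 with 7 and 3.

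**Figure D1:**
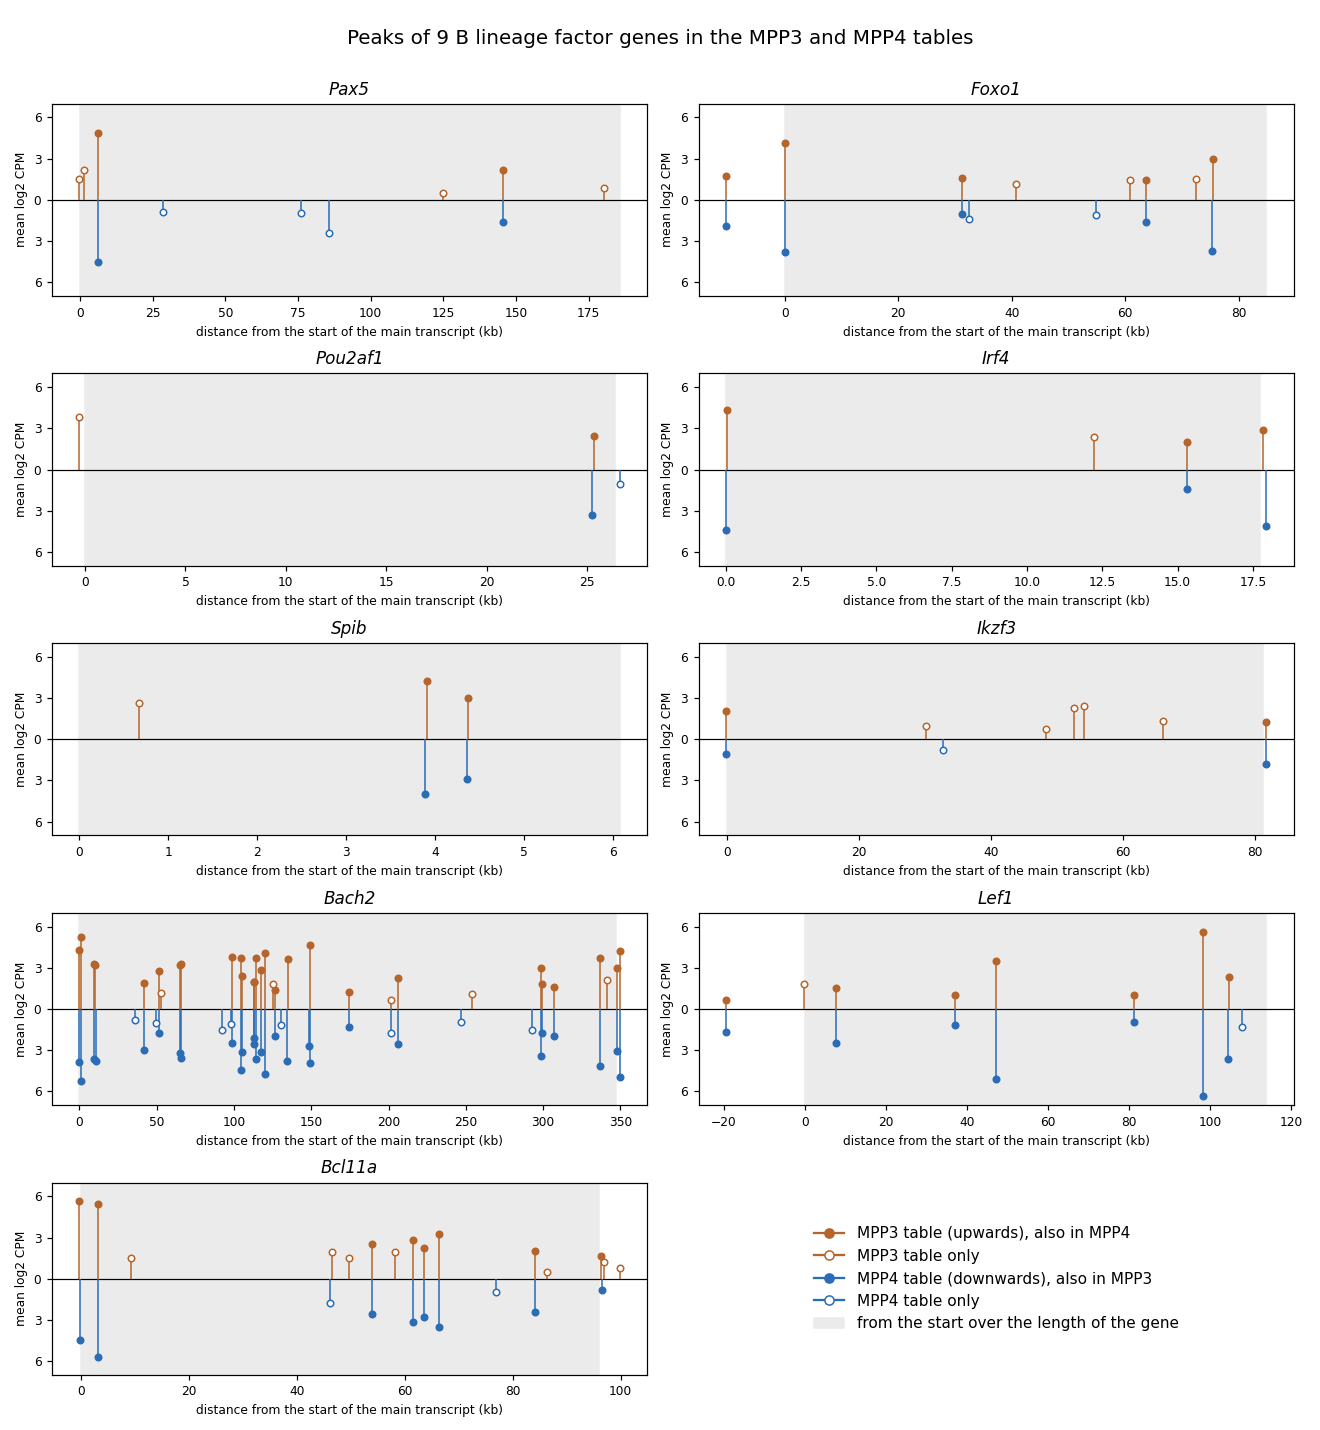
Each panel plots the peaks of 1 gene by distance in kb from the start of its main transcript (x axis) and by the authors' mean log2 CPM (y axis, MPP3 upwards and MPP4 downwards, both counted from 0), with filled points for peaks that overlap a peak of the other table and open points for peaks in 1 table only. Bach2 carries 32 and 36 peaks along its length, whereas Pou2af1 has 2 in each table and only its 3′ UTR peak in both.

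Most members lay in introns. In MPP3, 53 members were in introns, 15 were promoter peaks (centre within 1 kb of a transcript start of their gene), 7 were downstream, 4 in coding exons, 4 in 3′ UTRs and 2 upstream. In MPP4, the counts were 53 in introns, 11 at promoters, 6 downstream, 3 in 3′ UTRs, 2 upstream and 1 in a coding exon. Promoter peaks made up 17.6% of the members in MPP3 and 14.5% in MPP4, while 23.0% and 23.3% of all peaks lay within 1 kb of a protein-coding start. The median level of the members was 2.20 (range 0.52 to 5.68) on the log2 CPM scale in MPP3 and 2.51 (range 0.77 to 6.36) in MPP4, beside 2.24 and 2.35 for all peaks. As a set, the members were thus close to the average peak in level.

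The members were then compared by whether a peak of the other table overlapped them by at least 1 bp. In MPP3, 28 of 85 members (32.9%) had no such peak, beside 24.3% of all MPP3 peaks. In MPP4, 18 of 76 members (23.7%) had none, beside 23.3% of all MPP4 peaks. The MPP3 share was thus above the background and the MPP4 share near it. Away from promoters, the MPP3 share was 34.3%, beside 28.0% of all MPP3 peaks away from protein-coding starts. The MPP4 share was 27.7%, beside 27.1%. Members in MPP3 only belonged to Bcl11a (7), Bach2 (5), Ikzf3 (5), Pax5 (4), Foxo1 (3) and, with 1 each, Pou2af1, Irf4, Spib and Lef1. Members in MPP4 only belonged to Bach2 (8), Pax5 (3), Foxo1 (2), Bcl11a (2) and, with 1 each, Pou2af1, Ikzf3 and Lef1. Such peaks were weak. Their median level was 1.51 in MPP3 and 1.11 in MPP4, while shared members had medians of 2.85 and 3.13. Over all peaks, the medians were 2.68 and 2.82 for shared peaks and 1.21 and 1.20 for peaks in 1 table only. The level of such a region in the other cell type was not analysed here.

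**Figure D2:**
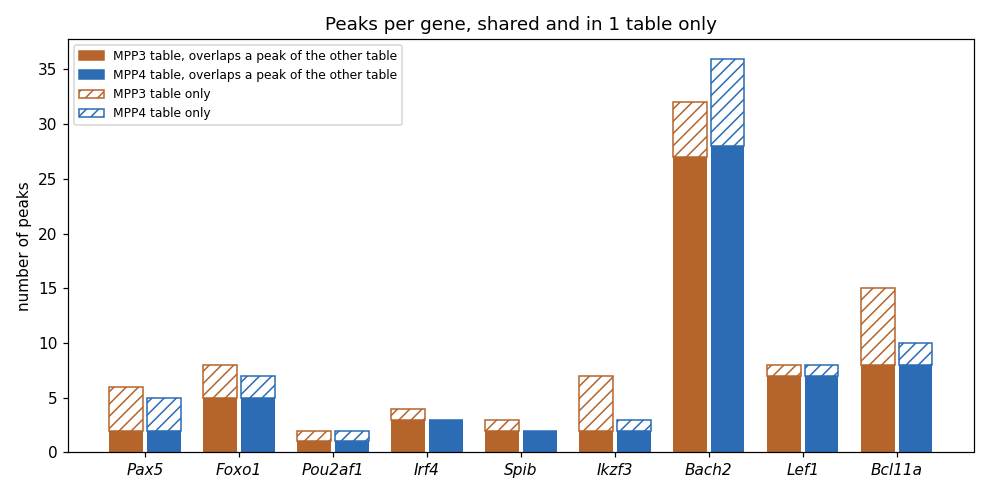
Bars give the number of peaks (y axis, from 0) of each gene in the MPP3 and MPP4 tables, with the solid part for peaks that overlap a peak of the other table and the hatched part for peaks in 1 table only. Ikzf3 has 5 of its 7 MPP3 peaks hatched, and Irf4 and Spib have none hatched in MPP4.

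All 9 genes had a promoter peak in MPP3 and 6 had one in MPP4. The promoter peaks of Pou2af1, Spib and Lef1 were among the 4 promoter members found in MPP3 only, and no promoter member was found in MPP4 only. As shares, these were 4 of 15 in MPP3 (26.7%), beside 11.8% of all peaks near protein-coding starts, and 0 of 11 in MPP4, beside 10.9%. Pou2af1, the coactivator of Oct factors at immunoglobulin genes, had the strongest of these (chr9:51213093-51213745), with a level of 3.81 in MPP3, which was also the highest level of any member in MPP3 only. The Spib promoter peak (chr7:44531287-44531506), in intron 1 of the main transcript and 120 bp from a start of a shorter one, had a level of 2.67. Spib encodes an ETS factor related to PU.1. The Lef1 promoter peak (chr3:131110123-131110313) had a level of 1.80, and repeats masked in the reference covered most of it. For Lef1 the absence rests on the assignment. An MPP4 peak 510 bp from a Lef1 start, with a level of 3.38 and a counterpart in MPP3, and another 732 bp from a start, with a level of 1.73, both went to the closer gene Gm43352. No MPP4 peak of any assignment had its centre within 1 kb of a start of Pou2af1 or Spib. The fourth was a Pax5 peak 376 bp upstream of the start of the main transcript (chr4:44710788-44710937), with a level of 1.53 and a length of 150 bp.

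Promoters were compared between genes by level per kb of peak, since longer peaks collect more fragments. For the highest promoter peak of each gene in MPP3, log2 CPM per kb was 6.24 for Bcl11a, 6.15 for Pax5, 5.76 for Foxo1, 5.55 for Bach2 and 5.38 for Irf4. These 5 were above the median of 5.18 for all promoter peaks. With promoters limited to 500 bp from a start, Pax5 (4.26) and Bach2 (4.99) were below that value. Spib (4.85), Pou2af1 (4.42), Lef1 (4.19) and Ikzf3 (3.66) were below it. In MPP4, log2 CPM per kb was 6.31 for Bcl11a, 5.90 for Pax5, 5.80 for Irf4, 5.55 for Bach2, 5.38 for Foxo1 and 3.03 for Ikzf3, beside a median of 5.15. The value of Ikzf3 in MPP4 was at the 0.873rd percentile of promoter peaks. The highest promoter peak of Bcl11a was a different one in each table. That of Pax5 (chr4:44704345-44704755 in MPP3) lay in intron 1 of the main transcript, 5937 bp inside the gene and 544 bp from the start of a shorter transcript. Pax5 was therefore open at an internal start in both tables, and at the start of its main transcript only a weak peak was called, in MPP3.

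**Figure D3:**
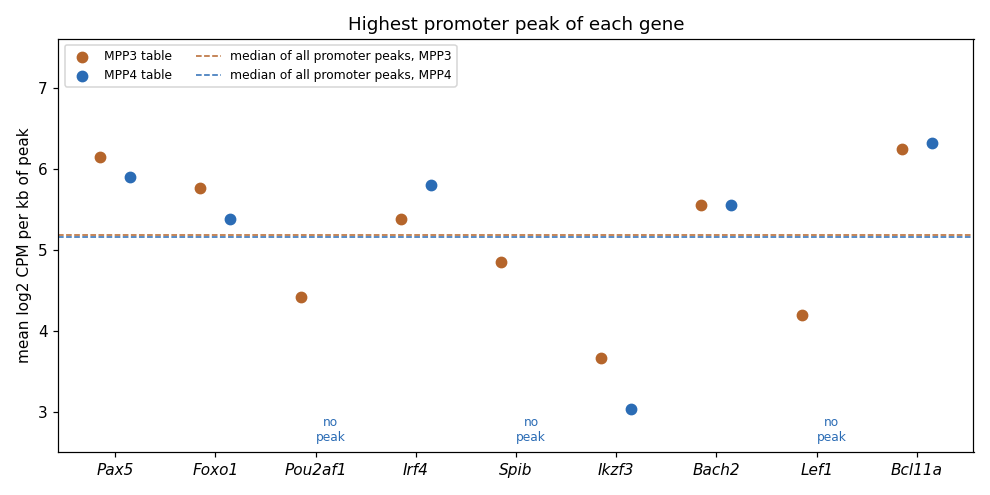
Points give the authors' mean log2 CPM per kb of peak (y axis, which starts at 2.5) for the highest promoter peak of each gene in each table, and dashed lines give the median of all promoter peaks. Bcl11a, Pax5, Foxo1, Bach2 and Irf4 lie above the lines in both tables, and no MPP4 promoter peak was assigned to Pou2af1, Spib or Lef1.

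To compare levels between the tables, peaks that covered at least 50% of each other were matched. This gave 53 member pairs of 62794. The MPP4 minus MPP3 difference in mean log2 CPM had a median of 0.23 (range -1.30 to 1.56) over the members and of 0.04 over all pairs. It was above 0 for 37 of 53 members (69.8%), beside 53.0% of all pairs. Per kb of peak, which takes out that many peaks were longer in MPP4, it was above 0 for 34 members (64.2%) and for 48.5% of all pairs. A difference of at least 1, a 2-fold difference in CPM, was found toward MPP4 for 5 members (9.43%), beside 4.73% of all pairs. Toward MPP3 it was found for 2 members, beside 2.76% of all pairs. Per kb, 4 members passed 1 toward MPP4 (7.55%, beside 1.60% of all pairs) and 0 toward MPP3 (beside 0.994%), and only a Lef1 peak in intron 3 and another in intron 11 passed toward MPP4 both ways. The other 2 were a Bach2 intron 1 peak (1.02) and the 3′ UTR peak of Pou2af1.

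Lef1 had the highest median difference of Foxo1, Bach2, Lef1 and Bcl11a, the genes with 5 or more matched pairs. Of its 7 pairs, 6 were higher in MPP4, with a median difference of 0.90. The pair with that difference, in intron 3 and 7682 bp inside the gene, came to 0.22 per kb, with lengths of 278 bp and 447 bp. Another intron 3 pair, 37066 bp inside the gene, differed by 0.15 and by -0.09 per kb. The summed level of the Lef1 peaks was 76.5 CPM in MPP3 and 144 CPM in MPP4. The intron 3 peak at chr3:131157398-131157872 in MPP3, 47164 bp inside the gene, had a level of 3.52 in MPP3 and 5.08 in MPP4. This difference of 1.56 was the largest among the members, and it was 1.51 per kb. One intron 11 peak (chr3:131214863-131215186 in MPP3) had levels of 2.31 and 3.67, a difference of 1.37. The other intron 11 peak (chr3:131208447-131208943 in MPP3) was high in both, with 5.59 in MPP3 (95.8th percentile of all peaks by level per kb) and 6.36 in MPP4 (99.0th percentile). Lef1 also had a repeat-rich upstream peak at -19504 bp from its start, with levels of 0.65 and 1.67. Its difference of 1.02 came to 0.33 per kb, because the MPP4 peak was longer. The 1 Lef1 pair that was not higher in MPP4, in intron 6, was weak in both tables, with 0.996 and 0.92.

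Bach2 had 26 matched pairs, more than any other member gene, and 19 were higher in MPP4. Their differences ranged from -1.30 to 1.11 with a median of 0.30, so peaks of the same gene differed in both directions. An intron 2 peak 99033 bp inside the gene (chr4:32337589-32338085 in MPP3) had 3.77 in MPP3 and 2.47 in MPP4. An intron 1 peak 51288 bp inside it (chr4:32289836-32290349 in MPP3) had 2.75 and 1.74, a difference of -1.01. These were the 2 members at least 1 higher in MPP3. Per kb their differences were -0.99 and -0.77. Another intron 1 peak, 41796 bp inside the gene (chr4:32280478-32280721 in MPP3), went the other way, with 1.92 and 3.03, a difference of 1.11 and of 0.80 per kb. The most open Bach2 peak, 934 bp inside the gene in MPP3 (chr4:32239330-32240147), had nearly equal levels of 5.26 and 5.23. Away from the promoters the highest levels were 4.70 in MPP3, for an intron 2 peak that was called as 2 separate peaks in MPP4, and 4.97 in MPP4, for a peak downstream of the gene with 4.21 in MPP3.

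All 6 matched peaks of Bcl11a were higher in MPP4, by 0.06 to 0.61, and 4 of those differences were above 0 per kb. Its summed level went the other way, with 149 CPM in MPP3 and 119 CPM in MPP4. The sum also counts unmatched peaks, and the peak upstream of its main start was called as 2 in MPP4, of which 1, with a level of 4.74, went to Gm12063. Its highest peaks lay at the starts, with 5.68 in MPP3 upstream of the main start and 5.68 in MPP4 for the intron 1 peak near a second start, which had 5.46 in MPP3. Of its 15 peaks in MPP3, 7 had no counterpart in MPP4. Those 7 had levels of 0.52 to 1.97, none above the median of 1.97 for Bcl11a peaks in MPP3. Away from promoters, an intron 2 peak (chr11:24144332-24144838 in MPP3) had the highest level in both tables, 3.28 and 3.51.

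Foxo1 had 5 matched pairs, 3 of them higher in MPP4. Its promoter peak (chr3:52268185-52268517 in MPP3), which covers the transcript start, had 4.17 in MPP3 and 3.84 in MPP4. Its highest peak away from the promoter, in intron 1 and 75391 bp inside the gene (chr3:52343565-52343889 in MPP3), had 2.98 and 3.76. That difference of 0.78 came to 0.05 per kb, since the peak was 325 bp long in MPP3 and 538 bp in MPP4. Level and length thus moved together at this peak.

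Irf4, a partner of PU.1 at composite elements, had a promoter peak (chr13:30749021-30749494 in MPP3) with near levels of 4.30 and 4.44. Its peak just downstream of the gene (chr13:30766919-30767209 in MPP3) had 2.88 and 4.09. The difference of 1.20 came to 0.38 per kb, with lengths of 291 bp and 515 bp. Its 3′ UTR peak was higher in MPP3, with 2.02 and 1.45. A coding exon 8 peak with a level of 2.40 was found in MPP3 only.

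Pax5 and Spib had 2 matched pairs each, and all 4 were higher in MPP3. For Pax5, the peak at the internal start had 4.86 in MPP3 and 4.52 in MPP4, and the intron 8 peak (chr4:44564617-44564993 in MPP3) 2.20 and 1.65. The intron 8 difference of -0.55 came to -0.02 per kb. In MPP4, the highest Pax5 peak away from a promoter was an intron 6 peak found there only (chr4:44624767-44625157), with 2.42. For Spib, a coding exon 6 peak (chr7:44527969-44528350 in MPP3) had 4.23 and 3.96, and the 3′ UTR peak 3.0 and 2.88. These were higher than the Spib promoter peak in MPP3.

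The highest peak of Ikzf3 was lower than that of any other of the 9 genes in both tables. It was 2.40 in MPP3, an intron 3 peak found there only (chr11:98491602-98491932), and 1.81 in MPP4, a peak downstream of the gene. Its summed level was 22.9 CPM in MPP3 and 7.35 CPM in MPP4. The promoter peak (chr11:98545751-98546083 in MPP3) had 2.08 and 1.09, a difference of -0.98 and of -0.63 per kb. The 3′ UTR peak of Pou2af1 (chr9:51238811-51239274 in MPP3) had 2.41 and 3.33, a difference of 0.92 and of 1.14 per kb. The Pou2af1 gene thus had its promoter peak in MPP3 only and its 3′ UTR peak at the higher level in MPP4.

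**Figure D4:**
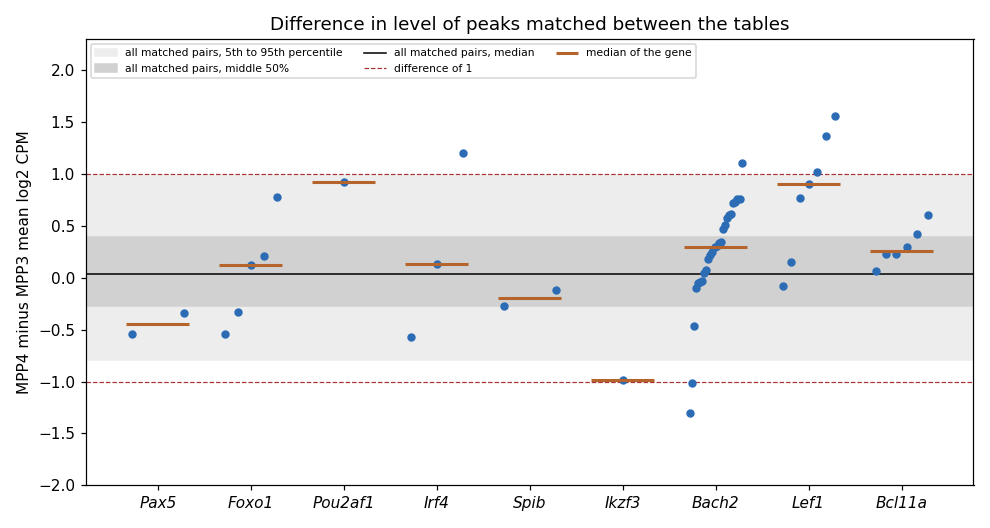
Points give the MPP4 minus MPP3 difference in mean log2 CPM (y axis) for each of the 53 matched member peaks by gene, bars give the median of a gene, and grey bands and the black line give the middle 50%, the 5th to 95th percentile and the median of all 62794 pairs. The Lef1 points reach 1.56, the Bach2 points run from -1.30 to 1.11, and both Pax5 and both Spib points lie below 0.

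Some peaks inside these genes were not members, because a non-coding transcript was closer. Pax5 intron 5, known for an enhancer of the gene, held 2 peaks in each table that were assigned to 4930517J16Rik. The one at chr4:44671053-44671311 in MPP3 had levels of 2.58 in MPP3 and 3.38 in MPP4, and the one at chr4:44672586-44673026 had 3.37 and 3.69. They were higher in MPP4, unlike the 2 matched Pax5 members, although the second difference came to 0.04 per kb. Lef1 had a shared peak near its start (chr3:131111962-131112556 in MPP3), assigned to Gm43352, with 3.50 and 3.38. When only protein-coding genes were used for assignment, the genes had 105 peaks in MPP3 and 94 in MPP4, and Pax5 had 4 matched pairs, 2 of them higher in MPP4.

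Motif matches were counted in a window of 125 bp on each side of each peak centre, as letters and not as binding. The EBF1 letters were found in 3 of 85 members in MPP3 (3.53%), beside 5.75% of all peaks, and in 4 of 76 in MPP4 (5.26%), beside 4.71% of all peaks. These shares were below and near the background. Over the whole peak, the shares were 7.06% beside 7.46% in MPP3 and 6.58% beside 6.49% in MPP4, so both were near it. The members were the Foxo1 promoter peak with 2 matches and the start-proximal Bach2 intron 1 peak with 2 matches, in both tables, a Bach2 coding exon 7 peak in MPP3 only (level 2.12), a Bach2 intron 2 peak in MPP4 (level 2.69) and a Bach2 intron 4 peak in MPP4 only (level 1.5). The Foxo1 site also falls in its RefSeq promoter, a window around the annotated start (mm10). Of the 11 RefSeq promoters of 8 member genes, this was the only one with EBF1 letters, beside 6.56% of all 32851 such promoters.

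EBF1 letters within 50 bp of an E-box, anywhere in the peak, were found in 3 members in each table, that is 3.53% in MPP3 and 3.95% in MPP4, beside 1.45% and 1.14% of all peaks. They were the start-proximal Bach2 peak and the Bach2 intron 2 peak in both tables, the Pou2af1 promoter peak in MPP3 and the Bach2 intron 4 peak in MPP4. In the sequences above, the EBF1 letters CCCCTGGGA of the Pou2af1 promoter follow the E-box by 25 bp, the letters CCCAGGGGA of Bach2 intron 2 follow theirs by 14 bp, and in Bach2 intron 4 the letters TCCCAGGGG precede an E-box by 3 bp. With so few members, the shares differ from the background by a few peaks.

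For the other letters, E-boxes were found in 36.5% of the MPP3 members and 31.6% of the MPP4 members, beside 34.1% and 34.6% of all peaks. RUNX letters were found in 25.9% and 38.2%, beside 28.0% and 29.7%. RUNX1 is a core factor of blood progenitors. ETS-IRF letters, bound by PU.1 or Spib with Irf4 or Irf8, were in 15.3% and 13.2%, beside 8.32% and 9.28%. The PU.1 letters (GAGGAAGT) were in 3.53% and 3.95%, beside 8.72% and 9.89%. Ikaros letters (TGGGAA), which can overlap the EBF1 letters, were in 21.2% and 22.4%, beside 19.2% and 19.1%. IRF letters (GAAANNGAA), which can overlap the ETS-IRF letters, were in 10.6% and 10.5%, beside 7.37% and 8.70%, and FOXO letters (GTAAACA) in 3.53% and 3.95%, beside 2.73% and 2.72%. Among members in 1 table only, an E-box was in 12 of 28 in MPP3 and 3 of 18 in MPP4, and RUNX letters in 3 of 28 and 9 of 18. The shares for all peaks in 1 table only were 34.1% and 36.1% for the E-box and 26.2% and 32.8% for RUNX.

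The wider B cell programme was taken as Ebf1, Tcf3, Ikzf1, Spi1, Il7r, Rag1, Rag2, Dntt, Cd79a, Cd79b, Vpreb1, Igll1 and Blnk. These 13 genes had 84 peaks in MPP3, 30 of them (35.7%) in MPP3 only, and 70 in MPP4, 18 of them (25.7%) in MPP4 only. Of their 50 matched pairs, 30 were higher in MPP4, with a median difference of 0.10, and 6 were at least 1 higher in MPP4 and 1 in MPP3. Ebf1 gave 3 of those 6. The myeloid genes Cebpa, Cebpb, Gfi1, Irf8, Klf4, Csf1r and Mpo had 27 peaks in each table, 6 of them (22.2%) in that table only. Of their 20 pairs, 10 were higher in MPP4, 0 by at least 1, and 2, those of Mpo, were at least 1 higher in MPP3. For both lists, the shares over all peaks in 1 table only were 24.3% in MPP3 and 23.3% in MPP4. Of all pairs, 53.0% were higher in MPP4, 4.73% were at least 1 higher in MPP4 and 2.76% at least 1 higher in MPP3.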

How the data were processed

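ATAC-seq libraries were made by the authors from 5000 sorted cells each. By the methods and the submitters' notes, reads were trimmed with cutadapt 2.10, mapped to mm10 with snakePipes, deduplicated and limited to short fragments with deepTools 3.3.2. Peaks were called with MACS2 2.2.7.1 on merged replicates of each condition, and those of both genotypes were merged per cell type. The authors deposited, for each peak, the mean log2 CPM over the 4 libraries of a cell type from edgeR 3.32.0, which was the value used here. The 4 other columns of each table hold the authors' genotype comparison (log2 fold change, F, p-value and FDR) and were not used. No value per library was analysed here, so no test, SD or n could be given, and library depth was not analysed here. Weak peaks rest on few fragments and are less reliable.

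Peaks were assigned with GENCODE vM21 to the gene of the closest transcript start, centre or end, within 20 kb upstream and 10 kb downstream. Positions are 1-based mm10. Sequences were read from the RefSeq GRCm38 assembly and RefSeq promoters, where 8 of 9 genes matched and Ikzf3 did not. Pairs were peaks covering at least 50% of each other. Work was done in Python 3.11.15 with pandas 2.3.3, numpy 2.4.6 and pysam 0.24.0, and matching and motif counting were checked on simulated data. The members, lists and thresholds were chosen with earlier results of these data known. Named for each gene were the number of peaks, the highest promoter peak, the highest peak elsewhere, peaks differing by at least 1 on the log2 scale and peaks with EBF1 letters. For the wider B cell programme, 1 gene of the list is not reported here.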

Additional observations from a re-analysis of the deposited data

How the results depend on the processing

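No paired analysis was possible because the tables carry no value per library, and leaving out single libraries was not possible for the same reason. With peaks required to cover 80% of each other, 2 members instead of 5 were at least 1 higher in MPP4 (5.71%, beside 2.58% of all pairs), with fewer pairs left. As many members, 2, were then at least 1 higher in MPP3 (5.71%, beside 1.10% of all pairs). With differences centred on the median of all pairs, 4 members were at least 1 higher in MPP4 and 3 in MPP3. At a difference of 0.5, 18 members were higher in MPP4 (34.0%, beside 19.7% of all pairs) and 6 in MPP3 (11.3%, beside 12.3%). Per kb of peak, 4 members instead of 5 were at least 1 higher in MPP4, 2 of them the same, and 0 instead of 2 were higher in MPP3. The median member difference was above 0 under every alternative run, between 0.14 and 0.29. With a mean log2 CPM of at least 2, 48 of 85 MPP3 members and 43 of 76 MPP4 members remained. Of these, 7 were in MPP3 only (14.6%, beside 6.96% of all such peaks) and 1 in MPP4 only (2.33%, beside 6.37%). EBF1 letters were found in 6 MPP3 members over the whole peak instead of 3, and in 1 member of each table when both flanking bases were required (1.18%, beside 0.907% of all peaks, in MPP3 and 1.32%, beside 0.558%, in MPP4). With promoters within 500 bp of a start, 5 genes instead of 6 had a promoter peak in MPP4, since that of Pax5 lay farther away. Chosen after seeing the data, assignment to protein-coding genes only gave 36 MPP3 peaks (34.3%) and 22 MPP4 peaks (23.4%) in 1 table only, beside the same 24.3% and 23.3% of all peaks. Counting any peak near a start gave 7 genes with a promoter peak in MPP4 instead of 6, the added gene being Lef1. Library depth was not analysed here.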
